A study of Mus musculus with 4 samples.

Results

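The genes described here encode the proteins of the mitochondrial ribosome and carry names that begin with Mrpl (large subunit) or Mrps (small subunit) followed by a digit. All symbols of that form listed in both tables were taken, 77 of 22481, of which 47 were Mrpl and 30 were Mrps genes. No measured value entered that choice. The name does not always give the place of the protein. Mrps18a and Mrps30 code for proteins that sit in the large subunit of the mammalian ribosome, Mrps36 codes for a protein now known as a subunit of the oxoglutarate dehydrogenase complex, and Mrps36-ps1 is annotated as a pseudogene.

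The mitochondrial ribosome translates the few mRNAs that the mitochondrial genome carries, all for subunits of the respiratory chain and the ATP synthase. Its rRNAs are made inside the organelle, while its proteins are encoded in the nucleus, made in the cytosol and imported. Some of these proteins have a homologue in bacterial ribosomes, and others are specific to mitochondria. Brown adipose tissue is rich in mitochondria, whose uncoupled respiration gives off heat, so it depends on both sets of genes.

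The series recovered RNA from mouse brown adipose tissue with an antibody against FAM172A (IP) or with immunoglobulin (IgG), to look for transcripts that FAM172A binds in the cold. It used 4 libraries in 2 pairs, each with 1 IP and 1 IgG library from tissue titled WT (wild type). The cold protocol is given for the pair titled cold. No protocol is given for the pair titled WT4. The columns of the first table name only IP and IgG, so the cold titles belong to it by elimination, and its libraries are called the first pair. Nothing states that the pairs are separate animals or whether animals were pooled, and p-values therefore measure only the spread between these samples, which may be technical. Strain, age, sex and a library of unselected RNA are not given in the labels.

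Depth was 6633653 fragments for IP and 5587294 for IgG in the first pair, and 1631881 for IP and 360369 for IgG in the WT4 pair. All 10 brown adipocyte markers had fragments in every library. Their summed level, in counts per 1000000 on the authors' scaling (scaled CPM), was 10733 and 6821 in the IP libraries and 10301 and 3358 in the IgG libraries. The 6 skeletal muscle markers were also found throughout, at 5113 and 1397 summed scaled CPM in IP and 3273 and 1410 in IgG. Summed endothelial markers were at 699 and 1884 in IP and at 1702 and 1420 in IgG, with all 5 detected in every library. Of 4 macrophage markers in the tables, 3 and 4 were found in the IP libraries and 2 and 1 in the IgG libraries, with summed levels of 61.5, 54.0, 28.7 and 27.5 scaled CPM in that order. All 5 blood markers had fragments except in the WT4 IgG library, which had 2 of them. Of the 4 liver markers, 4 had fragments in each library of the first pair and 2 in each of the WT4 pair. The part of these cell types in the results below was not tested. In tissue, fewer cells of a type and less RNA per cell cannot be told apart. Fam172a, which codes for the protein the antibody recognises, had log2 ratios of IP over IgG of -0.16 and 0.15, on 141 IP and 135 IgG fragments and then 99 and 24.

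Together the 77 genes took a small and similar share of the fragments of both libraries in each pair. The share was 0.278% in the first IP library (95% Wilson interval 0.274 to 0.282) and 0.273% in the first IgG library (0.269 to 0.278). It was 0.180% in the WT4 IP library (0.173 to 0.186) and 0.194% in the WT4 IgG library (0.180 to 0.209). Within each pair the intervals of IP and IgG overlapped. These intervals and the intervals given below cover counting error alone, because PCR copies of a molecule cannot be told from other molecules here. The floors given below cover it only for the library without fragments of the gene. In the first pair large subunit genes held 11631 fragments in IP and 10071 in IgG, and small subunit genes held 6841 and 5204. By subunit the first pair shares were 0.175% and 0.180% for large and 0.103% (0.101 to 0.106) and 0.0931% (0.0906 to 0.0957) for small subunit genes, and the small subunit intervals did not overlap. That gap rested on Mrps5, which held 1135 of the IP and 305 of the IgG fragments. Without Mrps5 the small subunit share was no longer higher in IP than in IgG. For WT4 the counts were 1804 and 413 for large and 1127 and 285 for small subunit genes.

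Levels per transcript length are given as the deposited FPKM (fragments per kilobase of transcript and per 1000000 fragments), which was set separately in each table. The median over the 77 genes was 21.3 in the first IP library, 22.4 in the first IgG library, 11.4 in the WT4 IP library and 1.08 in the WT4 IgG library. Large subunit genes had medians of 20.2, 21.96, 12.1 and 2.50 FPKM in the same order, and small subunit genes 21.5, 22.6, 10.5 and 0.00. The subunits were thus close in the first pair, and the low values of the WT4 IgG library came from genes listed at 0 there.

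Mrps5, the homologue of a bacterial protein near the decoding site, had the highest mean level. It stood at 123 FPKM in the first IP library, 37.6 in the first IgG library, 66.3 in the WT4 IP library and 342 in the WT4 IgG library. It was high in IP in the first pair and in IgG in the WT4 pair, and the 342 FPKM rested on 59 fragments. Mrps21, homologous to bacterial S21, followed at 167, 116, 78.1 and 0 FPKM in the same order. It was thus at 0 only in the shallowest library, and it shares a merged listed locus with other genes. Mrps35, specific to mitochondria, had 63.5, 14.7, 35.3 and 101 FPKM. Mrps36 had 122, 65.2, 14.6 and 0 FPKM.

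Among large subunit genes Mrpl34, homologous to bacterial L34, had the highest mean level at 118, 115, 17.2 and 105 FPKM in the same order. IP and IgG were close in the first pair, and IP lay below IgG in the WT4 pair. Mrpl12, a protein of the factor-binding stalk that also binds the mitochondrial RNA polymerase, had 159, 104, 32.1 and 22.2 FPKM. Mrpl15 had 126, 108, 26.2 and 19.0 FPKM. In FPKM IP lay above IgG in each pair for both genes. By counts Mrpl15 had a first pair ratio of 0.847 (exact 95% interval 0.764 to 0.938), under 1, and Mrpl12 had a WT4 ratio of 0.922, whose interval included 1. Mrpl38, a protein of the central protuberance that bacteria lack, had 79.0, 92.3, 57.4 and 1.08 FPKM. At the low end were Mrpl49, with at most 2.28 FPKM, and Mrpl22, with at most 3.36 FPKM.

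**Figure D1:**
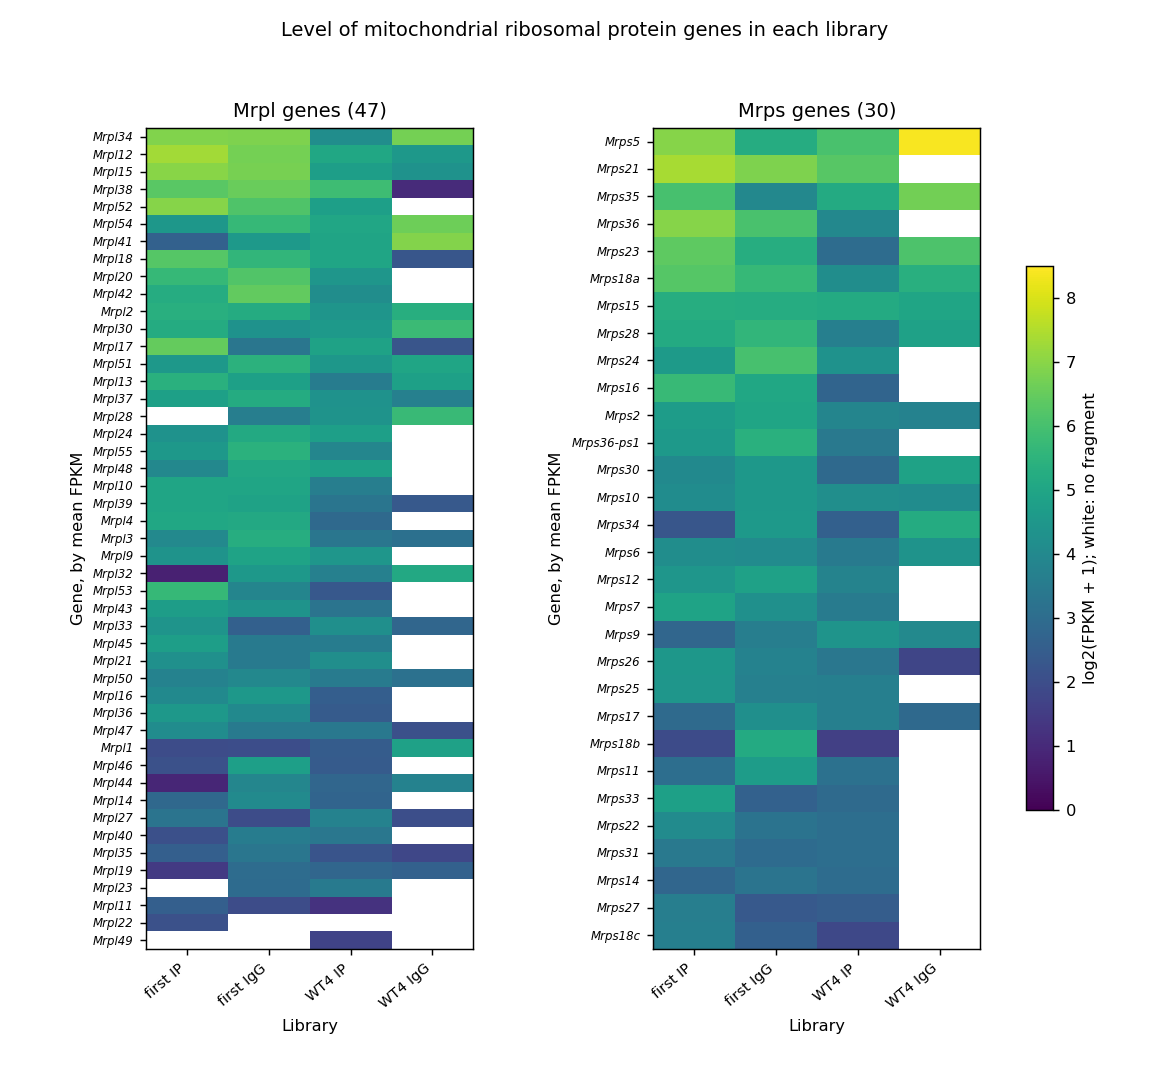
Deposited FPKM of each of the 47 Mrpl genes (left) and 30 Mrps genes (right) in the 4 libraries, as log2(FPKM + 1), with genes ordered by mean FPKM and white cells for genes with no fragment. The WT4 IgG column is white for 38 genes, against 3, 2 and 1 in the first IP, first IgG and WT4 IP columns.

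Nearly all of the genes were detected in 3 of the 4 libraries. A fragment was found for 74 of 77 in the first IP library, 75 in the first IgG library, 76 in the WT4 IP library and 39 in the WT4 IgG library. Over all listed symbols the shares with a fragment were 51.4%, 59.5%, 78.6% and 41.4% in the same order. All 30 small subunit genes were found in each of the first 3 libraries and 14 of them in the WT4 IgG library. Of the 47 large subunit genes 44, 45 and 46 were found in the first 3 libraries and 25 in the WT4 IgG library. With a minimum of 10 fragments the counts were 72, 74, 70 and 28.

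The genes lay in a middle range of levels, and detection was also compared with genes of like level. For each library the range ran from the lower to the upper quartile of the members' means over the other 3 libraries, which took 39 members. All 39 had a fragment in the first IP library, against 73.9% of 5277 genes of like level. All 39 were found in the first IgG library, against 83.5% of 5049 genes, and in the WT4 IP library, against 98.0% of 4601 genes. In the WT4 IgG library 18 of 39 (46.2%) were found, against 59.6% of 3918 genes. Detection was therefore above the share of like genes in the first pair and below it in the WT4 IgG library, a description for which no test was made.

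**Figure D2:**
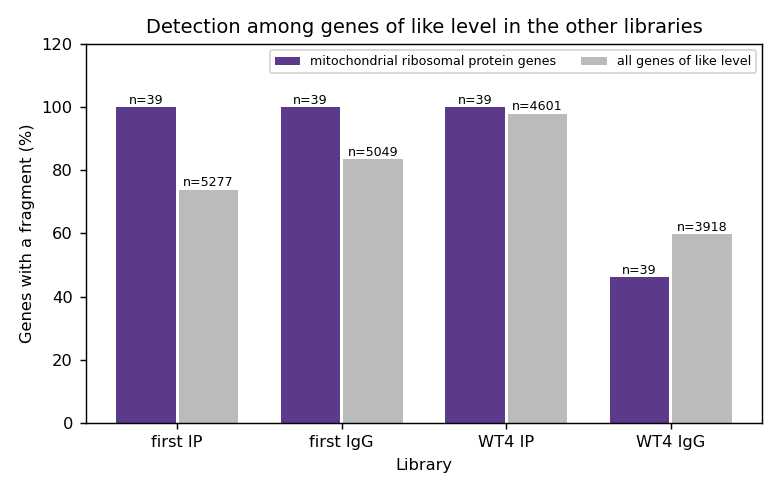
Share of genes with at least 1 fragment in each library (y axis, percent), for mitochondrial ribosomal protein genes and for all genes whose mean over the other 3 libraries lay in the same range, with n above each bar. The genes are at 100% in 3 libraries and at 46.2% in the WT4 IgG library, where genes of like level are at 59.6%.

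A filter on low values asked for at least 1 scaled CPM on average, and 76 of the 77 genes passed it (46 large and 30 small), as did 16217 genes in all. The gene that fell out was Mrpl22, homologous to bacterial L22, whose 17 fragments all came from the first IP library. Of those kept, 37 were at 0 in the WT4 IgG library. Their median levels in the first IP, first IgG and WT4 IP libraries were 22.4, 24.0 and 14.1 scaled CPM, while the 39 found there had medians of 40.8, 36.3 and 28.8. The lengths differed as well. The longest coding transcript of the members (GENCODE vM21) had a median of 1150 bases in 36 of those at 0 and 1461 in 38 of those found. Over all genes kept the medians were 2623 bases for genes at 0 in that library and 3638 for genes found, and the members as a whole stood at 1328 against 3159 for all genes kept. The part of length in detection was not tested.

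The comparison of IP with IgG asks which transcripts were recovered with the antibody. It was made within each pair as a log2 ratio of scaled CPM after adding 1. With 1 library a group no test within a pair is possible, and counts past a 2-fold line are read beside the same share of all 16217 genes. In the first pair 8 of the 76 stood at least 2-fold higher in IP (background 13.3% of all genes, 14.7% of genes in the members' level range). Another 16 were at least 2-fold lower (background 26.9%, and 29.1% in the level range). As shares of the 76 these were 10.5% and 21.1%, both a little under the background. In the WT4 pair 44 were higher (57.9%; background 51.6%, and 52.6% in the level range) and 11 lower (14.5%; background 19.3%, and 21.5% in the level range). None of these shares stood far from those backgrounds, but the level range was wide and took in 14192 genes. The middle range, from the members' lower to upper quartile of level, held 4664 genes. Of these 40.2% were higher and 32.8% lower for WT4, further from the 57.9% and 14.5% of all 76 members. With a filter at 10 scaled CPM, 49.2% of 63 members were higher for WT4, against 37.5% of 10469 genes. No test was made of these gaps. With each pair centred on the median of all genes, 35 of the 76 were higher for WT4 (background 39.9%). Another 23 were lower (background 36.9%).

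The median log2 ratio of the 76 genes was -0.23 in the first pair, against -0.03 over all genes kept, and 1.78 in the WT4 pair, against 1.17. Over the 4664 genes in the middle range of levels the medians were -0.16 and 0.11. The 76 genes ranged from -4.08 to 1.79 in the first pair and from -2.40 to 5.83 in the WT4 pair. Large subunit genes had medians of -0.25 and 1.90, and small subunit genes of -0.10 and 1.67. The small subunit median in the first pair changed sign to 0.26 in FPKM and to 0.49 without genes that share a listed locus. With genes grouped by the place of the protein, the WT4 medians were 1.49 for large and 1.67 for small, the reverse order. Of 46 large subunit genes, 4 were higher (8.70%; background 13.3%) and 12 lower (26.1%; background 26.9%) in the first pair. For WT4, 26 of them were higher (56.5%; background 51.6%) and 7 lower (15.2%; background 19.3%). Of 30 small subunit genes, 4 were higher and 4 lower in the first pair (13.3% each). For WT4, 18 of those were higher (60.0%) and 4 lower (13.3%). The share of large subunit genes that were lower in the first pair was thus that of all genes. The spread within each subunit was far wider than the gap between their medians.

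**Figure D3:**
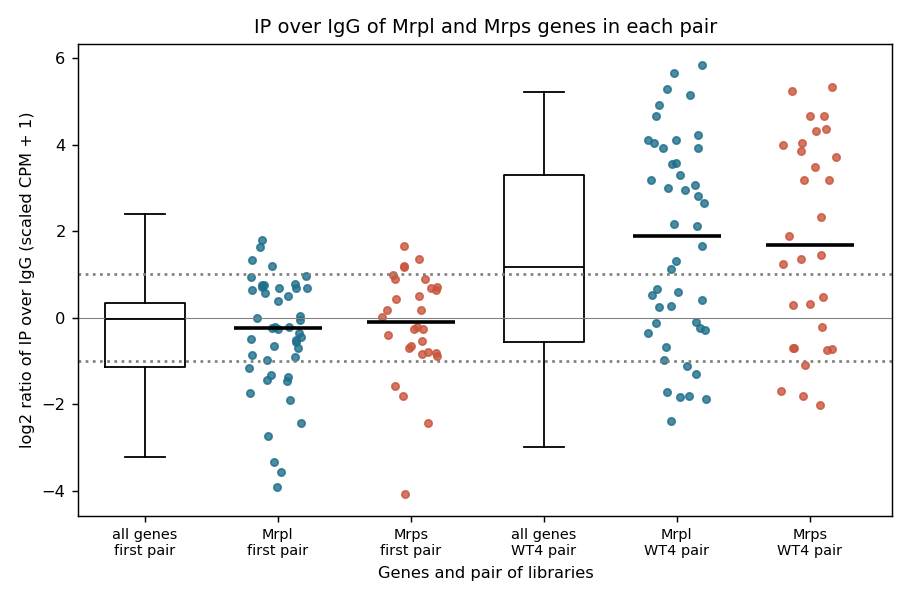
Log2 ratio of IP over IgG (y axis) for each Mrpl and Mrps gene (points, with a bar at the median) and for all 16217 genes kept (box from the lower to the upper quartile, whiskers at the 5th and 95th percentiles), in each pair; dotted lines mark 2-fold. Both subunits spread across the 2-fold lines in each pair, with medians of -0.25 and -0.10 in the first pair, then 1.90 and 1.67 for WT4.

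The ratios of the WT4 pair turned on the zeros of its IgG library. All 37 genes at 0 there were 2-fold higher in IP, as the ratio then has only the added 1 below the line. Against a floor of 3 fragments, 16 of them were at least 2-fold higher, 12 were between 1-fold and 2-fold, and 9 had no bound above 1. The highest bound was 7.46, for Mrpl24. Among the 39 genes with WT4 IgG fragments 7 were 2-fold higher and 11 were lower, with a median of -0.24. All genes kept with fragments in that library had a median of -0.28, with 19.4% higher and 33.8% lower. On their own counting intervals 5 of the 39 were higher in IP and 12 were lower. Neither the floor nor these intervals were computed over all genes, so the counts from both have no background.

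By the origin of the protein, the 47 kept genes with a bacterial homologue had a median WT4 log2 ratio of 1.30 and the 27 specific to mitochondria one of 2.99. Their first pair medians were -0.25 and -0.22. In the first pair 3 and 4 genes of these classes were higher (6.38% and 14.8%, background 13.3% of all genes). Lower were 9 and 7 (19.1% and 25.9%, background 26.9%). For WT4, 26 and 16 were higher (55.3% and 59.3%, background 51.6%). Lower there were 7 and 4 (14.9% and 14.8%, background 19.3%). The gap in the WT4 medians thus did not come with a gap in the WT4 counts. In both pairs 1 and 4 were higher (2.13% and 14.8%, background 7.19%). Another 2 and 3 were lower in both (4.26% and 11.1%, background 5.25%). These differences rest on few genes and were not tested.

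In both pairs, 6 of the 76 stood at least 2-fold higher in IP (7.89%; background 7.19%) and 5 at least 2-fold lower (6.58%; background 5.25%). In opposite directions went 8 genes (10.5%; background 17.3%). The counts that agreed in direction were near the background. Of the 6 higher in both, 5 were at 0 in the WT4 IgG library, where every member passed the WT4 line. For these 5 the WT4 pair therefore adds little. Among the 39 with WT4 IgG fragments, 1 was higher in both (2.56%, background 1.30% of such genes). In that set 5 were lower in both (12.8%, background 9.21%). Across the 76 genes the ratios of one pair were weakly related to those of the other (Pearson r = 0.20, Spearman rho = 0.14), and across the 39 with WT4 IgG fragments r was 0.40 and rho 0.44. Over all genes kept the values were -0.019 and -0.008, and over the 9251 with WT4 IgG fragments they were -0.001 and 0.005. These are descriptions across genes, which share their libraries, scaling and depth.

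**Figure D4:**
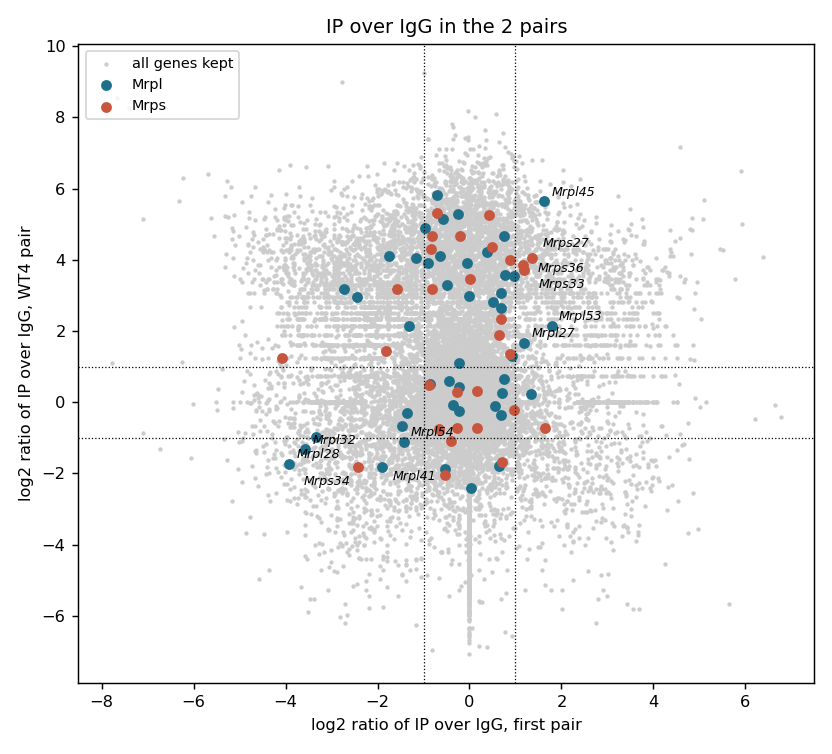
Log2 ratio of IP over IgG in the first pair (x axis) and the WT4 pair (y axis) for each Mrpl and Mrps gene over all 16217 genes kept (grey); dotted lines mark 2-fold, and the 11 genes past it the same way in both pairs are named. The genes lie within the grey cloud, with 6 in the upper right and 5 in the lower left corner.

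Of the 6 genes higher in both pairs, Mrpl45 had the highest mean ratio. Mrpl45 (ENSMUSG00000018882, chromosome 11, 97315716 to 97329920, plus strand, GRCm38) codes for a protein that holds the ribosome at the inner membrane. It had 272 fragments in the first IP library, 71 in the first IgG library, 73 in the WT4 IP library and 0 in the WT4 IgG library. IP lay above IgG in each pair. The log2 ratios were 1.63 and 5.65, which average 3.64 ± 2.84 (SD, n = 2 pairs). The first pair ratio was 3.26 (exact 95% interval 2.50 to 4.30), and against the floor the WT4 ratio was at least 6.56-fold. In the fit over both pairs Mrpl45 was not called (edgeR quasi-likelihood, log2 fold change 3.54 with SE 2.76, unadjusted p = 0.199, adjusted p = 1.0).

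Mrps27, a small subunit protein with pentatricopeptide repeats, the RNA-binding repeats common in organelles, had 176, 55, 23 and 0 fragments in the same order. The ratio was 2.72 in the first pair (2.002 to 3.76) and at least 2.07-fold in the WT4 pair. As for Mrpl45, the first pair interval lay above 2-fold and the WT4 bound was past 2-fold. That bound takes the IP count as exact, so it does not cover the counting error of the IP fragments. The log2 ratios of Mrps27 were 1.36 and 4.04 (mean 2.70 ± 1.90, SD, n = 2 pairs; edgeR, adjusted p = 1.0).

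The other 4 rested on few fragments in the WT4 pair. Mrpl53, a large subunit protein that bacteria lack, had 220, 50, 5 and 0 fragments. Its first pair ratio was 3.75 (2.74 to 5.20), while its 5 WT4 IP fragments gave no bound above 1. Mrps36 had 555, 208, 20 and 0 fragments, with a first pair ratio of 2.27 (1.93 to 2.68) and at least 1.80-fold in the WT4 pair. It is the most abundant of the 6. Mrps33, a short small subunit protein specific to mitochondria, had 110, 38, 18 and 0 fragments, with a first pair ratio of 2.46 (1.69 to 3.66) and at least 1.62-fold. Mrpl27, homologous to a bacterial protein that reaches into the peptidyl transferase centre, had 38, 11, 15 and 1 fragments. Its ratio was 2.94 in the first pair (1.47 to 6.38) and 4.04 in the WT4 pair (0.622 to 170). For Mrpl27 the WT4 interval included 1. Mrpl53 and Mrpl27 share a listed locus with another gene, so that their counts are uncertain. With 5 in place of 1 added to each level, Mrpl53, Mrpl27 and Mrps33 no longer passed 2-fold in both pairs, and Mrpl53 and Mrpl27 did not with centred pairs. In FPKM Mrps36 did not.

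Of the 5 genes lower in both pairs, Mrpl28, homologous to bacterial L28, had the lowest mean ratio. Mrpl28 (ENSMUSG00000024181, chromosome 17, 26123500 to 26126613, plus strand) was at 0 in the first IP library, at 79 fragments in the first IgG library, at 37 in the WT4 IP library and at 34 in the WT4 IgG library. The WT4 counts were alike, but the IgG library was the shallower, which made the IP level lower. The first pair ratio was at least 30.9-fold lower against the floor, and the WT4 ratio was 0.293 (exact 95% interval 0.179 to 0.482). The log2 ratios were -3.92 and -1.73, which average -2.82 ± 1.55 (SD, n = 2 pairs). Mrpl28 did not pass the test either (edgeR, log2 fold change -4.26 with SE 2.61, unadjusted p = 0.102, adjusted p = 1.0).

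Mrpl41 (ENSMUSG00000036850, chromosome 2, 24974117 to 24975098, minus strand), a large subunit protein that bacteria lack, had 29, 108, 51 and 50 fragments in the same order of libraries. Its ratios of 0.229 (0.146 to 0.347) and 0.275 (0.182 to 0.415) nearly matched between the pairs. On the log2 scale they were -1.91 and -1.83, which average -1.87 ± 0.05 (SD, n = 2 pairs). Mrpl41 had the closest pair of ratios among the 11 genes past 2-fold in both pairs (edgeR, adjusted p = 1.0).

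Mrps34, a small subunit protein specific to mitochondria, had 26, 144, 19 and 19 fragments, with ratios of 0.154 (0.0971 to 0.234) and 0.270 (0.135 to 0.538). Mrpl32, which the inner membrane m-AAA protease trims before assembly, had 4, 102, 20 and 14 fragments and ratios of 0.0334 (0.00892 to 0.0881) and 0.385 (0.185 to 0.824). Mrpl54, specific to mitochondria, had 71, 173, 37 and 22 fragments and ratios of 0.349 (0.261 to 0.463) and 0.453 (0.260 to 0.807). In all 3 genes both intervals lay under 1, and with TMM factors Mrpl54 was not 2-fold lower in both pairs. Mrps34 shares a listed locus with 4 other genes.

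Of the 8 genes that went opposite ways, all were 2-fold lower in the first pair and higher in the WT4 pair. They were Mrpl14, Mrpl23, Mrpl40, Mrpl42, Mrpl46, Mrps11, Mrps17 and Mrps18b, and 7 of them were at 0 in the WT4 IgG library, the exception being Mrps17. Mrpl46 and Mrps11, described here after their values were seen, are divergent neighbours on chromosome 7. Mrpl46 (78775236 to 78783531, minus strand) codes for a large and Mrps11 (78783119 to 78792989, plus strand) for a small subunit protein. Their annotated spans overlap, and RefSeq places the 2 starts with 41 bases between them. Mrpl46 had 29, 196, 12 and 0 fragments and Mrps11 had 44, 123, 12 and 0. Both were thus low in the first IP library, with log2 ratios of -2.73 and -1.58. For WT4 both had a log2 ratio of 3.18, with only the added 1 in IgG. Against the floor of 3 fragments each was at least 1.08-fold higher in the WT4 IP library. The tables give them 1 listed locus, the libraries were directional, and no source used here says whether the counting used strand, so reads from the overlap cannot be assigned to one of them with certainty.

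Across both pairs, none of the 76 genes passed the test (edgeR quasi-likelihood with the pair as a block, Benjamini-Hochberg adjustment over 16217 genes; background 0.00617% of genes called). At an unadjusted p under 0.05 there was 1 of the 76, Mrpl38, and 235 of all genes. DESeq2 had 2 of the 76 under that line and 537 of all genes, and limma had 1 and 418. None of the 76 passed after adjustment. The spread between the pairs was wide (edgeR common dispersion 1.47 over these genes), so the absence of calls says little about whether levels differed. The smallest p that an exact permutation test allows with 2 libraries a group, without regard to pair, is 0.333 (two-sided). Swaps kept within the pairs allow fewer arrangements, so their smallest p is larger. Mrpl38 (ENSMUSG00000020775, chromosome 11, 116131817 to 116138868, minus strand) had 899, 451, 130 and 1 fragments in the usual order of libraries. The gap was wide only in the WT4 pair. Its ratio was 1.70 in the first pair (1.51 to 1.90) and 35.0 in the WT4 pair (6.18 to 1395), and edgeR gave a log2 fold change of 2.39 with SE 1.13 (unadjusted p = 0.0340, adjusted p = 1.0). In FPKM the first pair turned the other way for Mrpl38, at 79.0 in IP and 92.3 in IgG.

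Among the 38 genes with fragments in all 4 libraries, the highest mean log2 ratios were those of Mrpl38 (2.71 ± 2.76), Mrpl18 (1.67 ± 1.39) and Mrpl27 (1.43 ± 0.34). Mrpl18, which in human cells also helps import 5S rRNA, had 728, 383, 78 and 3 fragments and log2 ratios of 0.69 and 2.66. It was higher in IP in each pair, though under 2-fold in the first. The lowest means were those of Mrpl32 (-2.45 ± 1.60), Mrpl44 (-2.15 ± 1.67) and Mrps34 (-2.12 ± 0.44), each over 2 pairs. Mrpl44, a protein with an RNase III fold in which human mutations cause cardiomyopathy, had 10, 137, 22 and 12 fragments. Its log2 ratios were -3.34 and -0.97, the second just inside the 2-fold line. Mrpl44 shares a listed locus with 1 other gene.

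Genes missing from a first pair library were few. Mrpl23, homologous to a bacterial protein at the exit of the peptide tunnel, had 0, 25, 10 and 0 fragments. Its first pair ratio was at least 9.79-fold lower against the floor, and the 10 WT4 IP fragments gave no bound above 1. Mrpl49, specific to mitochondria, had 10 fragments in the WT4 IP library and 0 in the others. Mrpl22, with 17 first IP fragments, was at least 4.82-fold higher there. Mrpl23 and Mrpl22 have near-identical processed pseudogenes, and Mrpl49 shares 1 merged listed locus with many other genes.

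The related genes Mrps18a, Mrps18b and Mrps18c, all homologues of bacterial S18 whose proteins take different places in the ribosome, differed in level and ratio. Mrps18a had 467, 242, 43 and 38 fragments and 75.6, 50.4, 17.0 and 40.1 FPKM in the usual order of libraries. Mrps18b had 6, 176, 2 and 0 fragments, with 2.87, 35.9, 2.09 and 0 FPKM. Mrps18c had 11, 4, 4 and 0 fragments, with 11.6, 5.07, 2.56 and 0 FPKM. Mrps18a was the most abundant in FPKM in each library. In the first pair Mrps18a had a ratio of 1.64 (1.40 to 1.93), Mrps18b of 0.0290 (0.0105 to 0.0644) and Mrps18c of 2.34 (0.694 to 10.1). The intervals of Mrps18a and Mrps18b lay far apart, and that of Mrps18c included 1. In the WT4 pair Mrps18a turned to 0.305 (0.193 to 0.485), while Mrps18b and Mrps18c had too few fragments for a bound above 1. Mrps18b has a near-identical processed pseudogene, and Mrps18a and Mrps18b share listed loci.

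Mrpl12 had 1618, 932, 65 and 19 fragments, the highest count of the 77 genes in both first pair libraries. Its ratio was 1.48 in the first pair (1.36 to 1.60) and 0.922 in the WT4 pair (0.546 to 1.63), log2 ratios of 0.56 and -0.11. A difference in the WT4 pair was not detectable at this depth. Mrps12, homologous to the bacterial protein that keeps decoding accurate, had 56, 47, 15 and 0 fragments, with a first pair ratio of 1.01 (0.676 to 1.53) and at least 1.35-fold in the WT4 pair. Mrps5 had 1135, 305, 133 and 59 fragments, with ratios of 3.17 (2.79 to 3.61) and 0.608 (0.444 to 0.840). The pairs thus went opposite ways for Mrps5, each beyond its counting interval. Mrps5 has a near-identical processed pseudogene (98.4% identity over 1019 bases), so its counts are uncertain.

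The deposited counts and FPKM did not always give the same ratio. Of 73 genes with both first pair libraries above 0, the FPKM ratio was within 1.05-fold of the count ratio for 34, at least 2-fold apart for 6 and on the other side of 1 for 7. In the WT4 pair, with 39 such genes, these numbers were 6, 7 and 8. The FPKM ratio ranged from 0.504 to 5.09 times the count ratio in the first pair and from 0.175 to 3.87 times in the WT4 pair. Mrpl17, named here after its values were seen, had the widest gap in the first pair. It had 443, 195, 103 and 11 fragments, with count ratios of 1.93 and 2.52 and FPKM ratios of 9.84 and 7.62. In FPKM Mrpl17 was therefore well past 2-fold in both pairs, and by counts it was just short of it in the first. It shares a listed locus with another gene. Mrps5 had a WT4 ratio of 0.608 in counts and 0.194 in FPKM, and Mrps35 of 0.854 and 0.349.

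**Figure D5:**
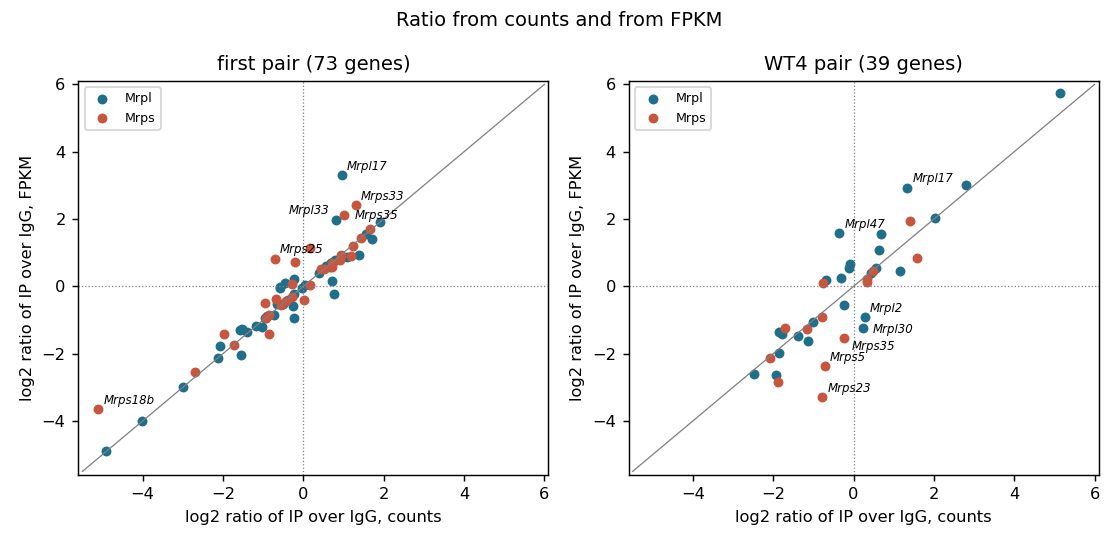
Log2 ratio of IP over IgG from the deposited FPKM (y axis) against that from the deposited counts (x axis) in the first pair (left, 73 genes) and the WT4 pair (right, 39 genes), for genes above 0 in both libraries and with no added 1; the line marks equal values and genes at least 2-fold off it are named. In the first pair 34 of 73 genes lie within 1.05-fold of the line, and in the WT4 pair 6 of 39 do.

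Some counts are uncertain because other loci carry nearly the same sequence. Of 76 members with an annotated transcript, 19 matched another annotated gene over at least 200 bases with at least 95% identity, and each of the 19 had such a match to a processed pseudogene. Among the genes past 2-fold in both pairs these were Mrpl27, Mrps33, Mrps36, Mrpl32 and Mrpl41. Mrps36 shows how little can separate 2 listed genes. The first 200 bases of the coding sequence of Mrps36 (gene chr13:100735955-100744659, minus strand) and of Mrps36-ps1 (chr17:53866715-53867020, minus strand) are shown from GENCODE vM21, with capitals at the bases that differ.
Mrps36: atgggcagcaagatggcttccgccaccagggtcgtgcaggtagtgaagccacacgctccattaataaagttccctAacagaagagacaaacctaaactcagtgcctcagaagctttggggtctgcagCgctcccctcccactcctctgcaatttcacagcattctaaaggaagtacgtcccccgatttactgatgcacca
Mrps36-ps1: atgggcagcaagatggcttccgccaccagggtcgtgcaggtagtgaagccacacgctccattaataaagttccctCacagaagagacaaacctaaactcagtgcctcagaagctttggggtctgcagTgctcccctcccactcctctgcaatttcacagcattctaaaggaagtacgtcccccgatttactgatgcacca

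Of all 306 aligned bases 304 were identical. The differences were A76C and C128T, with the Mrps36 base first and positions counted from 1 at the first base shown, and the longest identical run was 178 bases. The 2 genes were nevertheless counted apart. Mrps36-ps1 had 94, 144, 12 and 0 fragments against the 555, 208, 20 and 0 of Mrps36, so that its first pair log2 ratio was -0.81, where that of Mrps36 stood at 1.16. The sources used here do not say how reads that fit both were counted, and the values of both genes are uncertain.

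Promoter windows from RefSeq (GRCm38.p6, 250 bases before to 50 after the start) were found for 67 of the genes, in 73 windows. They were searched on both strands for motifs of factors known to act on genes for mitochondrial proteins. The ETS motif CCGGAAG, bound by factors such as GABPA, was in 24 of the 73 windows (32.9%), against 8.86% of all 32851 windows and 14.0% of the 14907 windows of genes kept. The YY1 motif AAGATGGC was in 12 (16.4%), against 2.75% and 3.63%. The core CGCATGCG of the NRF1 motif was in 7 (9.59%), against 1.87% and 3.20%. CCAAT was in 30 (41.1%), near the 37.4% and 37.2% of the others, and TATAAA in 5 (6.85%), against 13.6% and 9.08%. The median GC content was 58.3% in these windows, 52.7% in all and 59.3% in those of genes kept. A match describes letters in the window and is not a measured site.

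The ETS motif is shown in place before the start of a high-level large subunit gene and a gene higher in IP in both pairs. A further stretch is from Mrps18a, whose log2 ratios differed in sign without passing 2-fold in both pairs. These stretches are the bases nearest to the start that lie in no annotated gene, with CCGGAAG or its reverse complement in capitals. All are on the plus strand of GRCm38, Mrpl34 at chr8:71464776-71464925, Mrps27 at chr13:99344706-99344785 and Mrps18a at chr17:46110836-46110985.
Mrpl34: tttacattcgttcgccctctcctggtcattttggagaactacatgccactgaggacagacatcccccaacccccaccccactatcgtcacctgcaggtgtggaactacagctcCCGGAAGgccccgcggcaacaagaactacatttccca
Mrps27: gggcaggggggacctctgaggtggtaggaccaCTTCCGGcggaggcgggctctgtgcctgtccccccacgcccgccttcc
Mrps18a: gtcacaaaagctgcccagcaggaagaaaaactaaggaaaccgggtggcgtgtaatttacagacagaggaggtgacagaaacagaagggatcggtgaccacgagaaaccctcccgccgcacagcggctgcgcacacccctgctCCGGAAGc

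The first base of the motif lay 37, 48 and 26 bases before the RefSeq start of Mrpl34, Mrps27 and Mrps18a. Their log2 ratios of IP over IgG differed, at 0.04, 1.36 and 0.70 in the first pair against -2.40, 4.04 and -1.69 in the WT4 pair.

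The order of the 76 genes was partly kept between libraries. On log2(scaled CPM + 1) the Pearson r between the first IP and IgG libraries was 0.68 (Spearman rho 0.70), and between the WT4 libraries 0.50 (0.50). Between the IP libraries of the 2 pairs it was 0.54 (0.55), and between the IgG libraries 0.35 (0.31). Over all 16217 genes, which span a wider range of levels, r was 0.83, 0.54, 0.74 and 0.45 in that order. These correlations are across genes, with n = 76, and the points share library and depth.

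Other genes that work with the ribosome were described in the same way. Of 62 other genes of mitochondrial translation taken from a list, 57 were in the tables, and all 57 were kept. They had median log2 ratios of -0.23 in the first pair and 0.85 for WT4, where the median was 1.17 over all genes and 1.78 over the members. In the first pair 8 were higher (14.0%; background 13.3%) and 9 lower (15.8%; background 26.9%). For WT4, 27 were higher (47.4%; background 51.6%) and 7 lower (12.3%; background 19.3%). In both pairs 6 were higher (10.5%; background 7.19%) and 3 lower (5.26%; background 5.25%), and none passed the test (edgeR, smallest unadjusted p = 0.00458). A fragment was found for 55, 56, 57 and 38 of the 57 in the usual order of libraries. The WT4 IgG library was thus again the one with the most genes missing.

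Of the 6 ribosomal proteins whose genes lack the Mrp name, Aurkaip1 was the most abundant, at 220, 105, 67.6 and 54.0 FPKM. It had 1191, 520, 117 and 15 fragments and log2 ratios of 0.96 and 1.05. Dap3, a GTP-binding small subunit protein, had log2 ratios of 0.76 and 0.32, and Ptcd3, a small subunit protein with pentatricopeptide repeats, of -0.38 and 0.04. Chchd1 had 186, 0, 3 and 0 fragments and was past 2-fold in both pairs, though with few WT4 fragments. Among translation factors, a pair was picked after the values were seen. Mtif2, the initiation factor that brings the first tRNA, had 1011, 331, 165 and 0 fragments and log2 ratios of 1.36 and 6.81. Mtfmt, which formylates that tRNA, had 14, 109, 43 and 48 fragments and log2 ratios of -2.71 and -2.01. Both factors lay beyond 2-fold in each pair, in opposite directions to each other.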

How the data were processed

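The submitters' processing notes name the mm10 build and the tools HISAT2, cutadapt 1.9.3, Cuffdiff and Cufflinks, with no role for each. The labels describe rRNA depletion and a directional kit. No source used here gives the annotation release. The authors deposited estimated counts per gene, scaled within each of 2 tables of 22564 rows, and FPKM in separate columns. Most deposited counts were multiples of 1 step per library, and division by it gave fragments (94.5% to 97.7% of values above 0 within 0.05 of a whole number), rounded for count tests. Scaled CPM was the deposited count over the mean scaled total of its pair, times 1000000.

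edgeR 4.0.16 was run on 16217 genes with the pair, given by the titles and the tables, as a block, the authors' scaling and 1 residual degree of freedom; the spread was pooled across genes, and each library weighs on every call. DESeq2 1.42.0 and limma 3.58.1 were alternatives. Exact 95% intervals of a ratio come from the binomial distribution of its fragments. The floor was 3 fragments per library, with the count of the other library taken as exact.

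The members and lists were chosen with earlier results of these data known. Genes were named by rule: the 4 large and 4 small subunit genes of highest mean FPKM, those past 2-fold the same way in both pairs, the 3 highest and 3 lowest mean ratios with fragments in all libraries, those at 0 in a first pair library, Mrps18a, Mrps18b, Mrps18c, Mrpl12, Mrps12, Mrpl44 and Mrps36. Coordinates are 1-based from GENCODE vM21 on GRCm38, where Mrpl33 had no match. Of the 77 genes, 31 share a listed locus with another gene.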

Additional observations from a re-analysis of the deposited data

How the results depend on the processing

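Detection kept within 1.5 times of its count under minimums of 10 fragments and 0.1 FPKM. With all 4 libraries, none of the genes was called by edgeR with no pair block, TMM factors, no filter or centred pairs. None was called by DESeq2 or limma. The 1 unadjusted edgeR p under 0.05 became 0 without the block, where 147 of all genes were under that line. A fit with a library left out has 1 library in a group, so its calls are not read here. With a pseudocount of 5 the genes higher in both pairs fell from 6 to 3 (3.95%, background 3.75%), where Mrpl27, Mrpl53 and Mrps33 dropped out. With each pair centred on its median, 23 genes were 2-fold lower in the WT4 pair in place of 11 (30.3%, background 36.9%). In both pairs 8 were lower in place of 5 (10.5%, background 9.58%), while Mrpl27 and Mrpl53 were no longer higher in both. Centring moves the WT4 ratios by the median of all genes, 1.17, and the members' WT4 median from 1.78 to 0.60. That median was 0.66 with a filter at 10 scaled CPM, 1.01 with a pseudocount of 5 and 2.28 with one of 0.5. Without the 31 genes that share a listed locus, 9 were lower in the first pair, 25 higher and 6 lower in the WT4 pair. The WT4 calls were 55.6% and 13.3% of the 45 genes left; of all 11659 genes left, 26.8% were lower in the first pair, 52.0% higher and 19.4% lower for WT4. Leaving out genes with a near-identical copy, an alternative chosen after seeing the data, gave 4 higher in the first pair, 3 higher in both and 3 lower in both, from 58 genes. Copies were searched for the members only, so these counts have no background. The mean ratio of no gene past 2-fold in both pairs changed sign under these settings. Values near 0 did: the small subunit median of the first pair (-0.10) was 0.26 in FPKM and 0.49 without shared loci, and with centred pairs the mean ratios of Mrpl12 (-0.35), Mrpl15 (-0.13), Mrpl23 (-0.32), Mrps35 (-0.20) and Mrps5 (-0.11; -0.33 in FPKM) turned from positive to negative. By place the WT4 large subunit median was 1.49, under the small subunit's 1.67. Among single genes, Mrpl54 was no longer 2-fold lower in both pairs with TMM factors, and Mrps36 no longer 2-fold higher in both in FPKM. The 360369 fragments of the WT4 IgG library limit every WT4 ratio, and the counting intervals assume independent molecules.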
